A study of Mus musculus with 2 samples.

Results

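Interferon response genes are the genes that cells switch on when an interferon reaches them. The 42 genes described here were chosen by name, as widely used markers of that response, with earlier results of these data known. Each was found in the count tables of both liver libraries by its Ensembl identifier in the mouse annotation GENCODE M21. They are 42 of the 55421 genes in the tables and lie on 15 chromosomes. By role they fall into the OAS family, the IFIT and IFI genes, the interferon-inducible GTPases, signalling factors, nucleic acid sensors, enzymes of ISG15, ubiquitin and ADP-ribose conjugation, and other effectors.

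The study sequenced RNA of mouse liver in 2 libraries to ask how loss of Rcrin alters gene expression. The library labelled WT came from mice that carry floxed Rcrin alleles, and the library labelled Rcrin knockout came from conditional knockout mice. Both have a stated time of 8 weeks. The sources used here do not give the promoter that drives the recombinase, the deleted cell type, the mouse strain, the sex or the number of mice per library. Expression of the targeted gene was not analysed here.

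Type I interferons signal through the receptor of Ifnar1 and Ifnar2 and the kinases Jak1 and Tyk2, and interferon gamma through Ifngr1, Ifngr2, Jak1 and Jak2. Type I signals draw Stat2 and Irf9 into a complex that binds the interferon-stimulated response element (ISRE), while interferon gamma acts through the gamma-activated site (GAS). The induced genes sense foreign nucleic acid, degrade RNA, block translation, attack the vacuoles of intracellular parasites and raise antigen presentation. In liver, hepatocytes, Kupffer cells and endothelial cells all carry the receptors.

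The tables held 65121596 counts for WT and 63587567 for the knockout, and 17487 and 17333 genes had a count above 0. A gene was compared when its mean count was at least 50, which left 12064 genes, and it was called higher or lower at a difference of at least 2-fold after TMM scaling. There was 1 library per genotype, so the spread between mice is unknown and p-values are not reported. Differences are those between these 2 libraries, and each 95% interval covers counting error only. Fewer cells of a type and less RNA per cell cannot be told apart in such bulk tissue. Albumin, the main product of hepatocytes, had 3350104 and 5599153 counts.

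The interferon response genes leaned to lower levels in the knockout library, by a small amount for most of them. Of the 41 genes compared, 29 had a log2 ratio of knockout over WT below 0, where 50.8% of all genes compared did. Their median log2 ratio was -0.31, against -0.01 for all genes, and the middle of the set ran from -0.63 to 0.14, against -0.44 to 0.44. Summed over all 42 genes, 95539 WT counts stood against 71196 in the knockout, 1.26-fold lower with scaling. The intervals of 24 genes lay wholly below 0, those of 10 wholly above 0, and those of 7 spanned it. Of all genes compared, 40.0% had intervals wholly below 0 and 39.3% wholly above 0.

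Few of the genes passed the 2-fold limit. Oas3, Oasl2, Irgm1, Oas2 and Stat2 were lower by at least 2-fold, which is 5 of 41 or 12.2%, beside 8.61% of all genes compared. Ifit3, Gbp7, Gbp6 and Iigp1 were higher by at least 2-fold, which is 4 of 41 or 9.76%, beside 8.45%. Iigp1 lay at the limit itself, and the count was 3 with DESeq2 size factors, total-count scaling, 5 counts added or the GC trend removed. Both shares are near the background, so the number of strongly different genes does not set these genes apart from the rest of the liver transcriptome. Leaving out members with fewer than 3 exons or a 0 left 38, of which 29 lay below 0, beside 50.7% of all such genes, with a median of -0.31. Of these, 5 were lower and 3 higher by at least 2-fold, beside 7.62% and 7.64%.

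**Figure D1:**
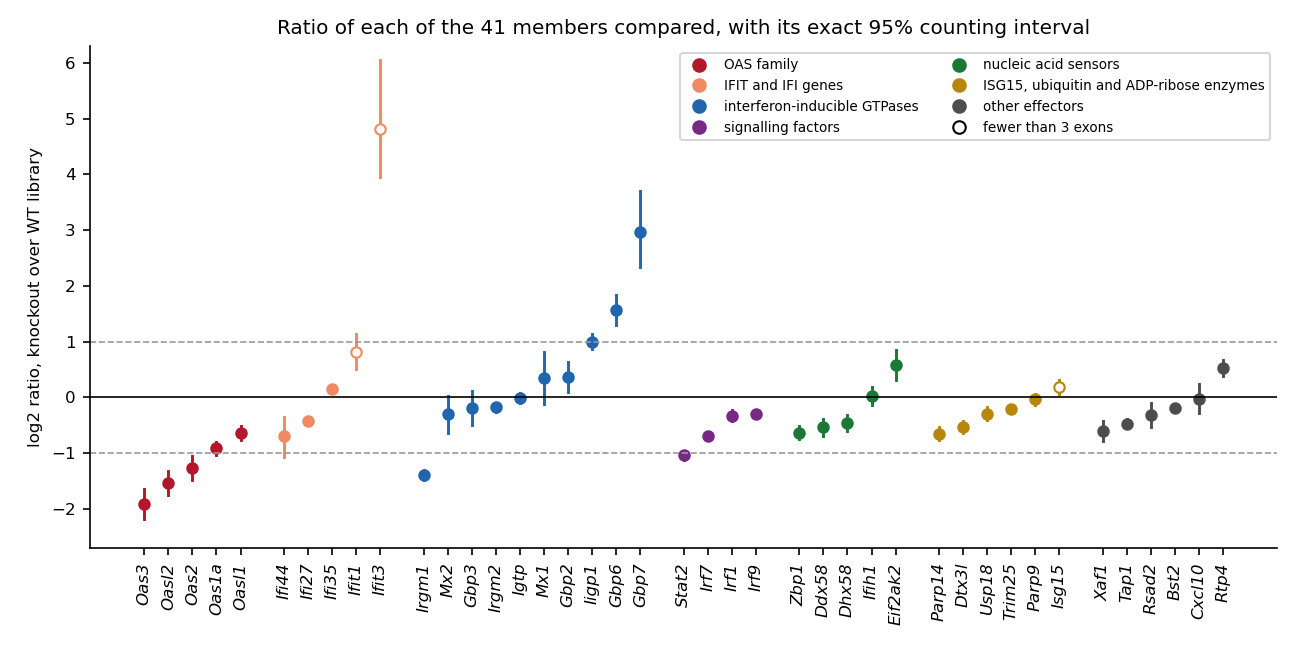
Log2 ratio of knockout over WT (vertical axis) for the 41 members compared, grouped by role. Bars are exact 95% counting intervals, dashed lines mark 2-fold, and open circles are genes with fewer than 3 exons. All 5 OAS genes lie below 0, while the GTPases run from -1.39 for Irgm1 to 2.96 for Gbp7.

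Depth and base composition moved with this lean. Among members that averaged 1000 counts or more, 18 of 20 were below 0, which is 90.0%, beside 51.1% of all genes at that depth. Among members with fewer counts 11 of 21 were, near the share of all genes. That share was 50.5% at 50 to 300 counts and 50.5% at 300 to 1000. Among members with a GC content of at least 50% 14 of 16 were below 0, beside 63.3% of all such genes. Among members under 50% GC 15 of 25 were, beside 35.7%. Spearman's rho between GC content and log2 ratio was -0.406 across the 41 members and -0.325 across 12059 genes, which are not independent and share both libraries. With the trend on GC content removed, 29 of 41 members were still below 0, beside 50.6% of all genes. The part of base composition in the ratios of single genes was not tested.

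**Figure D2:**
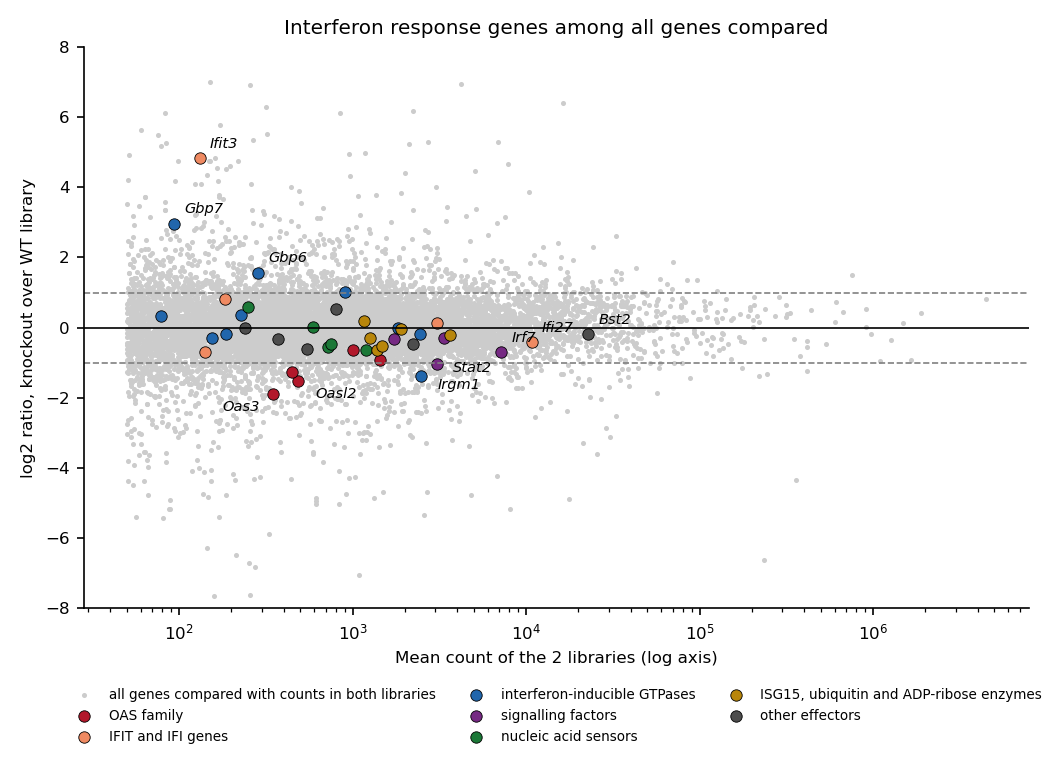
Mean count of the 2 libraries (horizontal log axis) against log2 ratio of knockout over WT. Grey points are 11920 genes with counts in both libraries, 5 of which lie beyond the axis, and coloured points are the interferon response genes. To the right of 1000 counts, 18 of 20 members lie below 0, beside 51.1% of all genes compared at that depth.

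The levels of the genes spanned several orders of magnitude in the WT liver. Levels are given as CPM, the count relative to the scaled library total, for each kilobase of exon, so that genes of different length can be set side by side. Bst2 was the highest at 417, followed by Ifi27 at 130, Irf7 at 36.3, Ifi35 at 26.2, Isg15 at 22.5 and Oas1a at 15.3. In the knockout library Bst2 and Ifi27 stayed in the first and the second place at 365 and 97.1, and Ifi35 at 29.0 and Isg15 at 25.6 stood above Irf7 at 22.4. With 1 library per genotype, the order of neighbours has no replicate spread behind it. Oas3 went from place 31 to place 41 of 42, and Ifit3 from place 40 to place 23. Bst2 and Ifi27 together made up 39.3% of the members' WT counts. All members together made up 0.147% of counts in WT and 0.112% in the knockout.

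**Figure D3:**
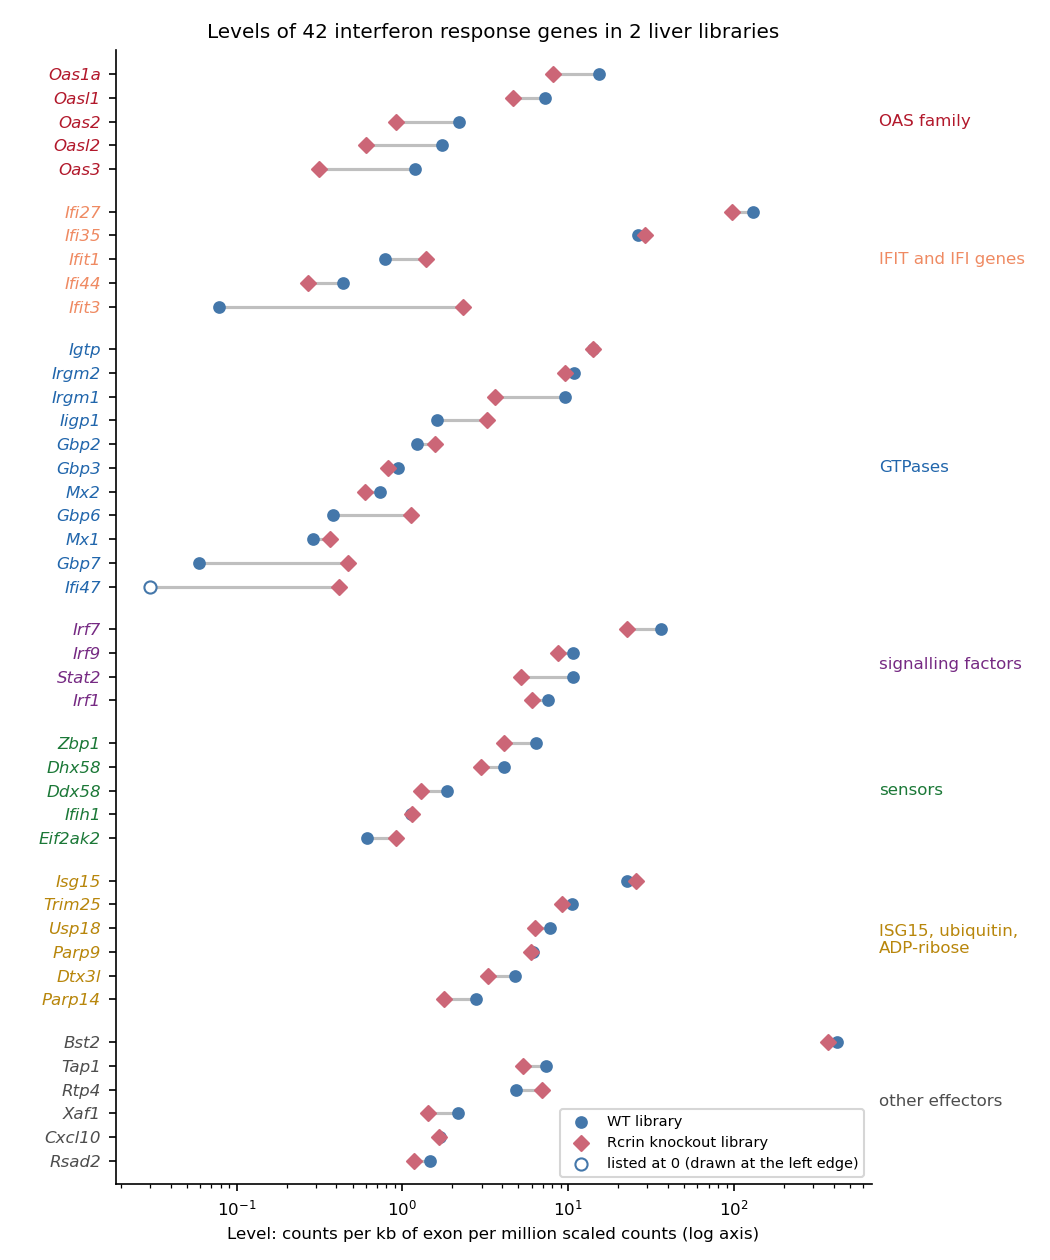
Level of each of the 42 genes in the WT library (circles) and the knockout library (diamonds), in scaled CPM for each kilobase of exon on a log axis. Genes are grouped by role, and the open circle marks Ifi47, listed at 0 in WT. The OAS genes and Stat2 lie to the left in the knockout, while Ifit3, Gbp6, Gbp7 and Iigp1 lie to the right.

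The promoters of many members carry the sequence that the interferon-induced complex binds. Promoter sequences from RefSeq on GRCm38.p6, from 250 bases before to 50 bases after the transcription start, were matched for 30 of the 42 genes. The ISRE core was searched as GAAA, any 2 bases and GAAA, and the GAS as TTC, any 3 bases and GAA, on both strands, and matches may overlap. An ISRE match was found in 18 of the 30 genes, 60.0%, while 3.99% of the 27025 genes in the table have one. A GAS match was found in 8 of the 30, 26.7%, beside 9.55% of all genes. In all there were 26 ISRE and 9 GAS matches. A match describes the letters in this window and does not show that a factor binds there. Below are the ISRE matches of genes on which the results turn, read along the gene's own strand, with the match in capitals and 8 bases on either side. Where capitals begin with TTTC the match is on the opposite strand.
Oas1a: gggaaatgGAAACTGAAAatctactt
Oas3: agggaggaGAAAACGAAAgtgaaggg
Isg15: aggaaaagGAAACCGAAAcagaaaat
Irgm1: aagaaataGAAACCGAAActgattct
Igtp: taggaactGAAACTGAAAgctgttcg
Irgm2: caggaactGAAACTGAAAgctgttcg
Gbp2: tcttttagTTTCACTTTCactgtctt
Gbp7: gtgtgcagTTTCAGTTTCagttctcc
Ifit3: taagtctgTTTCAGTTTCtactttcc
Stat2: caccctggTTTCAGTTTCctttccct

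These stretches differ in spacing from the start, but several hold the same match. Oas1a, Igtp and Irgm2 share it, and Gbp7, Ifit3 and Stat2 carry the same bases on the opposite strand. Isg15 and Irgm1 share another. The Igtp and Irgm2 stretches, at chr11:58199514-58199539 and chr11:58214905-58214930 on the plus strand, share 25 of 26 bases. The Isg15 stretch is the middle of 3 overlapping matches, which begin 78, 72 and 66 bases before the start. Oas1a, Irgm1 and Ifit3 have 2 matches each, and the one nearer the start is printed. By role, 6 of 7 GTPases, 3 of 3 sensors, 2 of 4 OAS genes and 2 of 4 IFIT and IFI genes had a match, and so did 3 of 5 other effectors, 1 of 4 signalling factors and 1 of 3 genes of the ISG15, ubiquitin and ADP-ribose set. A total of 7 genes had more than 1 ISRE match, 6 had both motifs and 10 had neither.

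Genes with the ISRE core lay on both sides of 0, while 10 of the 11 compared genes without it lay below 0. The 18 genes with a match had a median log2 ratio of -0.10, with 11 below 0, 3 lower and 2 higher by at least 2-fold. Of all genes compared, 50.8% were below 0, 8.61% lower and 8.45% higher by at least 2-fold. The 11 compared genes without a match had a median of -0.53, with 10 below 0 and 1 lower by at least 2-fold. Ratios from -1.91 for Oas3 to 4.82 for Ifit3 occurred among genes with a match. Dhx58, Oas2, Mx1, Zbp1, Rtp4, Parp9, Ifi27, Mx2, Usp18, Iigp1, Parp14 and Gbp6 had no entry in the promoter table.

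**Figure D4:**
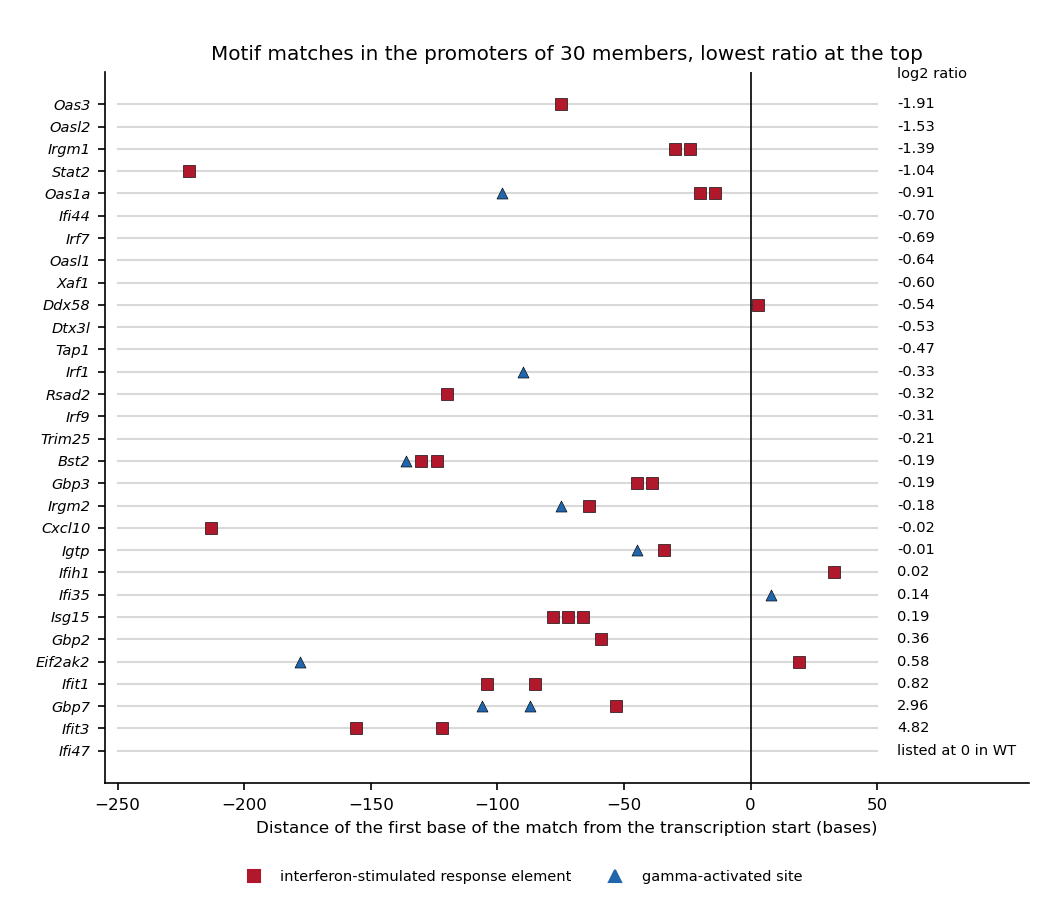
Position of each ISRE match (squares) and GAS match (triangles) relative to the transcription start (horizontal axis, bases) in the promoters of 30 members, ordered from the lowest log2 ratio at the top to the highest. Squares are spread along the whole order, from Oas3 at -1.91 to Ifit3 at 4.82.

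The ligands themselves were barely seen. Of 20 interferon genes, 19 had no count in either library, and Ifng, the gene of interferon gamma, had 0 in WT and 2 in the knockout. A count of 0 allows up to 3 counts, or 0.0453 CPM in WT and 0.048 CPM in the knockout. As many as 17 of the 20 have only 1 or 2 exons, and 15.3% of all compared genes with so few exons were listed at 0 in 1 of the libraries, against 0.125% of genes with 3 exons or more. A 0 for such a gene is therefore a weak measurement.

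None of the 8 receptor and kinase genes compared passed the 2-fold limit in either direction, beside 17.1% of all genes compared. Their median log2 ratio was -0.20. Ifngr1, the ligand-binding chain of the interferon gamma receptor, had 1202 counts in WT and 894 in the knockout, a log2 ratio of -0.34 (95% interval -0.47 to -0.22). Il10rb, a chain that interferon lambda receptors share with those of interleukins, had 691 and 548 counts (log2 ratio -0.25). Ifnar1 stood higher in the knockout, with 1776 and 2494 counts, whereas Ifnar2, the other chain of that receptor, had 4441 and 4184 counts and a log2 ratio of 0.00. Jak2, used by the interferon gamma receptor, had 238 and 345 counts.

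The signalling factors among the members all stood below 0, beside 50.8% of all genes compared. Stat2 (ENSMUSG00000040033, chr10:128270559-128292849, plus strand, GRCm38), a subunit of the type I complex, had 4180 counts in WT and 1917 in the knockout. Its log2 ratio was -1.04 (95% interval -1.12 to -0.96), 2.05-fold lower, and with the GC trend removed it was -0.90, inside the 2-fold limit. Irf7, the factor that amplifies type I interferon production, had 9084 and 5291 counts, 1.62-fold lower (log2 ratio -0.69, 95% interval -0.74 to -0.65). Irf9, the DNA-binding part of the complex, had 3822 and 2913 counts, and Irf1, induced mainly by interferon gamma, had 1985 and 1491. The 4 genes had a median of -0.51, and 1 of the 4 was lower by at least 2-fold, beside 8.61% of all genes.

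Of the nucleic acid sensors 3 of 5 were below 0, beside 50.8% of all genes compared. All 5 were inside 2-fold, a limit that 17.1% of all genes passed. Ddx58, which encodes the RNA sensor RIG-I, had 873 counts in WT and 566 in the knockout, and Dhx58, its regulatory relative LGP2, had 889 and 609. Zbp1, a sensor of Z-form nucleic acid, had 1483 and 900 counts, the lowest ratio of the 5 at -0.63. Ifih1, the sensor of long double-stranded RNA known as MDA5, had 605 and 579 counts, with a log2 ratio of 0.02 that became -0.28 with the GC trend removed. Eif2ak2, the kinase PKR, which halts translation on binding double-stranded RNA, had 207 counts in WT and 291 in the knockout (log2 ratio 0.58, 95% interval 0.31 to 0.84), and 0.28 with the GC trend removed. The median of the 5 sensors was -0.46.

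The Eif2ak2 promoter is shown because it is among the highest members with a table entry. It lies at chr17:78882523-78882822 on the minus strand of GRCm38.p6. Capitals mark a GAS match 178 bases before the start and an ISRE match that begins 19 bases after it, thus inside the transcript.
Eif2ak2 promoter: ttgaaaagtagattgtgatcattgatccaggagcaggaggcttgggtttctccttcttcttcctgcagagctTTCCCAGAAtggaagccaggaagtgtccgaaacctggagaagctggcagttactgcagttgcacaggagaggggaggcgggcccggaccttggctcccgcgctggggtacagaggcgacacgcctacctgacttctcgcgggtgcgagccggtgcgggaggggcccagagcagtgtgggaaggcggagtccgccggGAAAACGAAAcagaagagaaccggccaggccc

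Genes that lead from the sensors to interferon production leaned the same way as the sensors. Of 17 compared, 1 was lower and 1 higher by at least 2-fold, beside 8.61% and 8.45% of all genes. The median was -0.51. Traf6, a ubiquitin ligase of Toll-like receptor signalling, had 534 counts in WT and 78 in the knockout (log2 ratio -2.68). Mavs, the mitochondrial adaptor of Ddx58 and Ifih1, had 2915 and 1375 counts (95% interval of the log2 ratio -1.09 to -0.91). Traf3, another adaptor of the pathway, was the highest, with 124 and 393 counts (log2 ratio 1.75), followed by Irf5, a factor that induces interferon and cytokine genes, with 1413 and 1667 (0.32).

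The OAS family stood lower in the knockout library throughout. These enzymes make short oligoadenylates when they meet double-stranded RNA. All 5 members had log2 ratios below 0, beside 50.8% of all genes compared. Of the 5 members, 3 were lower by at least 2-fold, beside 8.61% of all genes, and the median log2 ratio was -1.26. Their summed counts were 5097 in WT and 2346 in the knockout, 2.05-fold lower. Oas3 (ENSMUSG00000032661, chr5:120753098-120777661, minus strand) had 554 and 139 counts and was the lowest of all members, 3.75-fold lower (log2 ratio -1.91, 95% interval -2.19 to -1.64). Oasl2 (ENSMUSG00000029561, chr5:114896936-114912234, plus strand) had 735 and 239 counts, 2.90-fold lower (95% interval of the log2 ratio -1.75 to -1.32). Oas2 (ENSMUSG00000032690, chr5:120730333-120749853, minus strand) had 644 and 253 counts, 2.40-fold lower (95% interval of the log2 ratio -1.48 to -1.05).

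The remaining OAS members stood lower by less than 2-fold. Oas1a (chr5:120896256-120907521, minus strand) had 1914 counts in WT and 958 in the knockout, a log2 ratio of -0.91. Oasl1, which in mouse lacks synthetase activity and is known to restrain translation of Irf7, had 1250 and 757 counts, a log2 ratio of -0.64. Oas1a shares 57.6% of its 50-base stretches with its neighbour Oas1g, so reads of the pair could be split between them, but their summed counts of 2572 and 1328 gave -0.87, close to Oas1a alone. Oas2, Oasl1 and Oasl2 share at most 0.138% with other genes and Oas3 0.31%.

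The OAS paralogs outside the members stood lower as well. Oas1b had 118 counts in WT and 28 in the knockout (log2 ratio -1.97), Oas1c 158 and 78 (-0.93), and Oas1g 658 and 370 (-0.74). With these, 8 of 8 OAS genes compared were below 0, beside 50.8% of all genes. Of the 8, 4 were lower by at least 2-fold, beside 8.61%, and the median was -1.09. With the GC trend removed the count was again 8 of 8 and the median -1.07. Abce1, an inhibitor of the pathway, had 1676 and 2142 counts, and Pde12, which degrades oligoadenylates, had 653 and 701. Their log2 ratios of 0.44 and 0.19 became 0.0005 and -0.20 with the GC trend removed.

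The OAS genes compared lie in 2 clusters of chromosome 5. Oas2 and Oas3 are 3.25 kb apart on the minus strand, and Oasl2 and Oasl1 are 11.01 kb apart on the plus strand. The Oas3 promoter, at chr5:120777610-120777909 on the minus strand, and the Oasl2 promoter, at chr5:114896684-114896983 on the plus strand, are shown because these are the lowest members. The capitals in the former mark its ISRE match, which begins 75 bases before the start. The latter holds neither motif in this window, although its ratio was nearly as low.
Oas3 promoter: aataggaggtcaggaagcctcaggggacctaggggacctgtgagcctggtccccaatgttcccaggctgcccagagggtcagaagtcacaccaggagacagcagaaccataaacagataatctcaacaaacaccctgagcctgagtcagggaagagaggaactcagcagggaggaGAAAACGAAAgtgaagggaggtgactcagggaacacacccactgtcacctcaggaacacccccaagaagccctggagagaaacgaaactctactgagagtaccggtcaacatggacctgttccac
Oasl2 promoter: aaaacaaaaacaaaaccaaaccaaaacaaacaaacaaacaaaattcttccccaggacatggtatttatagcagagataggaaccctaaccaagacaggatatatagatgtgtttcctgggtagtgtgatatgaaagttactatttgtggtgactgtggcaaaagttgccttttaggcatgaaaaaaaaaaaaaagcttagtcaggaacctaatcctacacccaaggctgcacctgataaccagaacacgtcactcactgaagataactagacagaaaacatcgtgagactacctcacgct

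The IFIT and IFI genes did not share a direction. Ifi27, a small mitochondrial membrane protein, had 12611 counts in WT and 8898 in the knockout (log2 ratio -0.42). Ifi44 had 178 and 103 counts (log2 ratio -0.70). Ifi35 had 3003 and 3126 counts (log2 ratio 0.14), and its binding partner Nmi, outside the members, had 527 and 689. The median of the 5 genes was 0.14, and that of the 3 with at least 3 exons was -0.42.

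The IFIT proteins act in complexes that bind viral RNA and block its translation, and both IFIT members stood higher in the knockout. Ifit1 had 138 counts in WT and 230 in the knockout (log2 ratio 0.82, 95% interval 0.51 to 1.14). With the GC trend removed its log2 ratio was 0.48. Ifit3 (ENSMUSG00000074896, chr19:34583531-34588731, plus strand) had 9 and 253 counts, a log2 ratio of 4.82 (95% interval 3.95 to 6.04). Its near-identical neighbour Ifit3b had 169 and 147 counts, and the pair share 51.2% of Ifit3's 50-base stretches, so the count of Ifit3 alone is uncertain. Their sum was 178 in WT and 400 in the knockout, which is 2.38-fold higher (log2 ratio 1.25, 95% interval 1.00 to 1.52). Ifit2, a paralog outside the members with 4 exons, stood lower, with 155 and 107 counts. Its log2 ratio was -0.45 (95% interval -0.82 to -0.08). Ifit1 and Ifit3 have only 2 exons. Of all genes compared with 1 or 2 exons, 39.5% were past 2-fold in either direction, against 17.1% of all genes.

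Among 11 IFIT and IFI paralogs the median was -0.45. Of the 11, 2 were lower and 1 higher by at least 2-fold, beside 8.61% and 8.45% of all genes. Ifitm3, which blocks virus entry at the endosome, had 46291 counts in WT and 13554 in the knockout (log2 ratio -1.69). Its relative Ifitm2 went the other way, with 948 and 9381 counts (log2 ratio 3.39). Summed, they had 47239 and 22935 counts, a log2 ratio of -0.96. Both have 2 exons. Ifi27l2b, a paralog of Ifi27, had 482 and 216 counts (log2 ratio -1.07), and Ifit3b was the highest after Ifitm2.

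The interferon-inducible GTPases lay on both sides of 0. These proteins gather on the vacuoles of intracellular bacteria and parasites, or in the case of the Mx genes block viruses. Of 10 compared, 1 was lower and 3 were higher by at least 2-fold, beside 8.61% and 8.45% of all genes, and the median log2 ratio was 0.16. Because of Iigp1, 2 rather than 3 were higher with DESeq2 size factors, total-count scaling, 5 counts added or the GC trend removed. Irgm1 (ENSMUSG00000046879, chr11:48861968-48871683, minus strand), a regulator of the other immunity-related GTPases and of autophagy, had 3653 counts in WT and 1315 in the knockout. It was 2.62-fold lower, with a log2 ratio of -1.39 (95% interval -1.48 to -1.30). It has 3 exons, and of 2429 genes compared with 3 to 5 exons 260 were lower and 274 higher by at least 2-fold.

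Its relatives among the members did not share that difference. Irgm2 had 2651 counts in WT and 2206 in the knockout (log2 ratio -0.18), and Igtp had 1897 and 1771 (-0.01). These overlap on the same strand and share 11.8% of Igtp's 50-base stretches. Iigp1 (ENSMUSG00000054072, chromosome 18), an effector GTPase, had 627 and 1183 counts, at the very edge of the limit (95% interval of the log2 ratio 0.86 to 1.14), and a log2 ratio of 0.53 with the GC trend removed. Ifi47 was listed at 0 in WT and had 64 counts in the knockout, so its mean was under the minimum and no fold is given. Among 8 immunity-related GTPases compared, members and paralogs together, 5 were below 0, beside 50.8% of all genes. The paralogs Gm5431, with 111 and 54 counts (log2 ratio -0.95), and Gm4951, with 912 and 541 (-0.67), stood lower like Irgm1. The paralogs Tgtp1, with 629 and 786 counts (0.41), and Tgtp2, with 574 and 648 (0.26), stood higher. With the GC trend removed Irgm1 at -1.61, Gm5431 at -1.24 and Gm4951 at -1.09 were past 2-fold. Tgtp1 then stood at 0.20 and Tgtp2 at 0.01.

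The guanylate-binding proteins, which break open pathogen vacuoles, stood mostly higher in the knockout but at low counts. Gbp7 (ENSMUSG00000040253, chr3:142530342-142550149, plus strand) had 22 counts in WT and 165 in the knockout, 7.80-fold higher (log2 ratio 2.96, 95% interval 2.35 to 3.71). Gbp6 (ENSMUSG00000104713, chr5:105270702-105293698, minus strand) had 151 and 420 counts, 2.94-fold higher (log2 ratio 1.56, 95% interval 1.29 to 1.84). Gbp2 had 205 and 248 counts, and Gbp3 203 and 168.

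Gbp6 overlaps the exons of Gm43302 on the same strand and shares 65.0% of its 50-base stretches with it. That gene had 256 and 475 counts, so the pair stood on the same side. Over all Gbp genes compared, 10 of 11 were above 0 with a median of 0.48, whereas 50.8% of all genes compared were below 0. The GC content of the 11 ran from 42.2% to 49.3%. Of all genes under 50% GC, 3521 of 5476 were above 0, with a median of 0.23. Of the 11, 2 were higher by at least 2-fold, beside 8.45% of all genes. With the GC trend removed 9 of 11 were above 0 and the median was 0.22. The 5 genes of the chromosome 3 cluster summed to 584 and 775 counts, and the 6 of the chromosome 5 cluster to 753 and 1254. Outside the members the highest were Gbp11 with 165 and 271 counts and Gbp8 with 87 and 130. In the set of 12 GTPase paralogs none passed 2-fold, beside 17.1% of all genes, and Gm5431 and Gvin1 were the lowest at -0.95 and -0.89. With the GC trend removed Gvin1 at -1.33 was past 2-fold, as were Gm5431 and Gm4951.

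The Mx pair was indistinct. Mx1, which blocks influenza virus in the nucleus of mouse cells, had 72 counts in WT and 86 in the knockout. Mx2, annotated as a polymorphic pseudogene, had 176 and 134. Both intervals spanned 0.

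The Gbp7 promoter, at chr3:142530086-142530385 on the plus strand, is shown as that of the highest member with at least 3 exons. Capitals mark 2 GAS matches, which begin 106 and 87 bases before the start, and an ISRE match on the opposite strand, which begins 53 bases before it.
Gbp7 promoter: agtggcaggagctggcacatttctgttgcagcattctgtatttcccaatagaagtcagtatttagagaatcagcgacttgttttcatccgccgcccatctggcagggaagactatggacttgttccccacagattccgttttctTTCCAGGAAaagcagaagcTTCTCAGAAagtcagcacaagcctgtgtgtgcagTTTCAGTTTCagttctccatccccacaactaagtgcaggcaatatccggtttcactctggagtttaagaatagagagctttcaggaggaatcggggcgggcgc

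Enzymes of ISG15, ubiquitin and ADP-ribose conjugation stayed inside 2-fold, a limit that 17.1% of all genes passed, and had a median of -0.25. Isg15, the ubiquitin-like protein itself, had 1126 counts in WT and 1208 in the knockout. Usp18, which removes ISG15 and also silences the type I receptor, had 1431 and 1100. Trim25, a ubiquitin ligase that acts on RIG-I, had 4007 and 3271. Their log2 ratios ran from -0.29 for Usp18 to 0.19 for Isg15.

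Parp14, an ADP-ribosyltransferase, had the lowest ratio of that set, with 1722 and 1034 counts (log2 ratio -0.65). Parp9 and its partner ligase Dtx3l are transcribed head to head and overlap by 458 exonic bases. Dtx3l had 1798 and 1171 counts (log2 ratio -0.53), whereas Parp9 had 1975 and 1815 (-0.04). Because the use of strand in counting is not stated, reads of the overlap cannot be assigned to either.

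The other effectors also stayed inside 2-fold, a limit that 17.1% of all genes passed, and had a median of -0.25. Bst2, or tetherin, which holds budding virions at the cell surface, had 24974 counts in WT and 20619 in the knockout. Its log2 ratio was -0.19 (95% interval -0.22 to -0.16), and 0.06 with the GC trend removed. Xaf1, a pro-apoptotic protein, had 670 and 416 counts, and Rsad2, or viperin, which makes a chain-terminating nucleotide, had 422 and 319.

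Tap1, the peptide transporter of antigen presentation, had 2664 counts in WT and 1812 in the knockout, and Psmb9, a proteasome subunit gene that overlaps it on the opposite strand, had 2248 and 1693. Cxcl10, a chemokine for activated T cells, had 250 and 232 counts. Rtp4, a chaperone of membrane receptors, was the only one of the 6 above 0, with 679 and 926 counts (log2 ratio 0.53).

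Inhibitors of the pathway held some of the larger differences among related genes. Of 12 compared, 5 were lower and 0 higher by at least 2-fold, Trex1 included, beside 8.61% and 8.45% of all genes. Cish, a feedback inhibitor of cytokine receptors, had 6390 counts in WT and 995 in the knockout (log2 ratio -2.60). Socs1, the inhibitor of Jak kinases most tied to interferon gamma, had 121 and 34 (-1.73), and Socs3 had 1495 and 569 (-1.31). Ptpn11, a phosphatase, had 3234 and 438 (-2.80). Trex1, a nuclease that clears cytosolic DNA, had 137 counts in WT and was listed at 0 in the knockout. Socs1, Socs3 and Trex1 have 2 exons each. Among the 9 inhibitors with at least 3 exons 2 were lower, beside 7.62% of all such genes, and the median was 0.06. The highest were Rnf125 with 153 and 199 counts and Adar with 1038 and 1258.

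A wider set of 42 further interferon-stimulated genes had a median of -0.25. Of these, 3 or 7.14% were lower and 1 or 2.38% higher by at least 2-fold, beside 8.61% and 8.45% of all genes. Ly6e had 56595 counts in WT and 20251 in the knockout (log2 ratio -1.40), and Lgals3bp 3327 and 1232 (-1.35). The highest were Ddx60 with 35 and 110 counts (1.72) and Cmpk2 with 233 and 428 (0.96). Over the 107 related genes compared, ligands left out, 70 or 65.4% were below 0, beside 50.8% of all genes. By at least 2-fold 12 or 11.2% were lower and 3 or 2.8% higher. Their median was -0.25. These medians are near that of the members, but these lists too were chosen with earlier results of these data known.

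**Figure D5:**
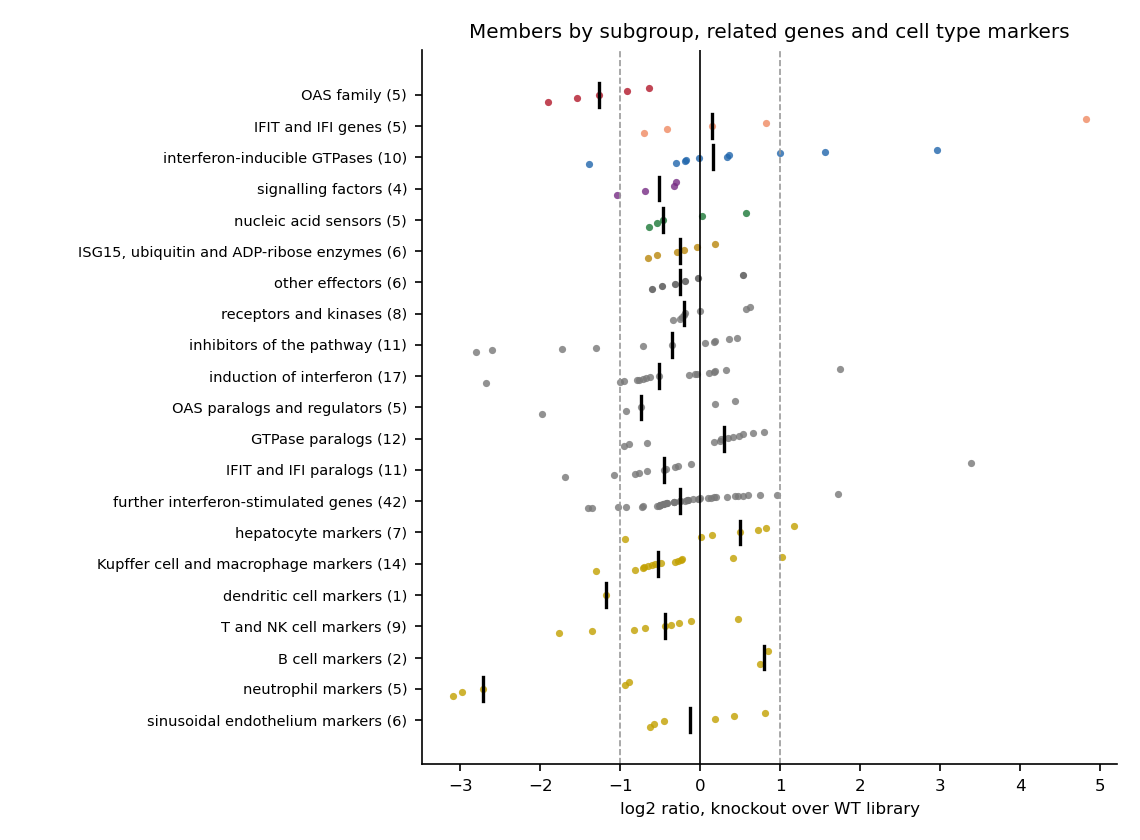
Log2 ratio of knockout over WT for the members by role (coloured), related genes of the pathway (grey) and cell type markers (gold), for genes with counts in both libraries, whose number is in brackets. Thick bars are medians and dashed lines mark 2-fold. The OAS family has a median of -1.26, and Kupffer cell and macrophage markers have -0.53.

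Markers of several immune cell types were lower in the same library as most members. Of 14 Kupffer cell and macrophage markers 12 were below 0, beside 50.8% of all genes compared. Their median was -0.53, and their summed level went from 2059 to 1475 CPM. The lowest was Cd68 at -1.30 and the highest Vsig4 at 1.02. With the GC trend removed Cd68 stood at -1.12 and Vsig4 at 0.80. The summed level of 11 T and NK cell markers went from 28.9 to 19.0, and that of 6 neutrophil markers from 45.3 to 17.9, with a median of -2.72 over the 5 compared. The ratios of the 7 hepatocyte markers ran from Trf at -0.93 to Hnf4a at 1.17. Of the 7, 1 was below 0, beside 50.8% of all genes, and 6 were above 0, with a median of 0.50. Summed, these markers stood at 119900 CPM in WT and 151300 in the knockout. Albumin alone rose from 50540 to 89620 CPM, by more than the sum did, while Trf fell from 33400 to 17480. The sum therefore does not show a rise shared by all hepatocyte markers. The 6 sinusoidal endothelial markers summed to 295 and 300.5 with a median of -0.13. The extremes were Gzmb at -1.77 and Klrb1c at 0.48 for T and NK cells, Mpo at -3.08 and S100a8 at -0.89 for neutrophils, and Stab2 at -0.63 and Lyve1 at 0.82 for sinusoidal endothelium. B cell markers summed to 3.89 CPM in WT and 6.61 in the knockout over 4 genes, and the compared Cd79a and Cd79b had ratios of 0.75 and 0.85. Dendritic cell markers summed to 4.93 and 3.47 over 7 genes without a shared direction. Itgax, the only one with enough counts to compare, had 144 and 60, and Xcr1 had 64 and 20, whereas Siglech, Ccr9, Flt3 and Clec9a had more counts in the knockout than in WT. Of the listed markers none was at 0 in either library. The part of cell numbers in the ratios of the interferon response genes was not tested.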

How the data were processed

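Total RNA was taken up with Trizol and prepared with a SMARTER kit for mRNA, per the labels' protocols. The values the authors deposited are raw counts by Ensembl gene, per the file headers, in whole numbers for 1 WT and 1 Rcrin knockout library. The build is GRCm38 (mm10), per the submitters' processing notes. Aligner, counter, strand setting and handling of multi-mapping reads: not given in the sources used here. Names, positions and exons came from GENCODE M21, which holds 55154 of the 55421 genes.

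Counts were scaled with TMM factors (1.02 for WT, 0.982 for the knockout; edgeR 4.0.16, R 4.3.3). The log2 ratio was taken after adding 0.5 counts, over genes averaging at least 50 counts, with a limit of 2-fold. With 1 library per genotype no test was made. Exact conditional 95% intervals (Clopper-Pearson, scipy 1.17.1) cover counting error only, and since PCR copies carried no molecular identifiers the true error is larger. The depth, 63587567 counts or more per library, makes counting error small for all but the low genes. Sharing of sequence was measured as the share of 50-base stretches of a gene's transcripts that occur in transcripts of another gene. Promoters came from RefSeq on GRCm38.p6.

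Groups followed the genotype labels. The members, and the lists of related and marker genes, were chosen with earlier results of these data known. All members are named; of each related list, the 2 highest and 2 lowest ratios were named, and of each marker list the extremes. Promoters are those of the 2 lowest and 2 highest members with at least 3 exons and an entry, off chromosome 18. Nmi, Ifnar2, Socs1, Socs3, Trex1, Oas1g, Gm43302, Gm4951, Ifit2, Tgtp1, Tgtp2, Psmb9 and Alb were named after their values were seen. So were the dendritic markers other than Itgax. Alternatives were total-count scaling, size factors of DESeq2 1.42.0, 5 counts added, no filter or a mean of 500, limits of 1.5-fold and 4-fold, intervals wholly beyond 2-fold, exon minimums, the mean, and removal of the GC trend by lowess (statsmodels 0.14.6). Some genes that the rule took are not reported here, and related lists were computed without them. The calculation was tested on simulated counts before use.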

Additional observations from a re-analysis of the deposited data

How the results depend on the processing

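The lean of the members held under each alternative run: their median log2 ratio lay between -0.37 and -0.28, except that the mean, used in place of the median, was -0.084. With a mean of at least 500 counts, 2 members were lower and 1 higher by at least 2-fold among 26. With a 1.5-fold limit 12 of 41 were lower and 5 higher, beside 18.8% and 19% of all genes, and with a 4-fold limit 0 were lower and 2 higher. Without Oas1a, Ifit3 and Gbp6, an alternative chosen after seeing the data, 2 were higher.

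Subgroups of few genes moved more. With a mean of at least 500 counts the OAS median was -0.78 with 0 lower, over the 2 genes left. The IFIT and IFI median turned to -0.14 with 0 higher, and the GTPase median to -0.10 with 1 higher, since low-count genes left the comparison. With no filter the GTPase median was 0.34. With the GC trend removed the IFIT and IFI median was 0.38 with 1 lower, the sensors' median was -0.28, and 0 signalling factors were lower. The cause of these GC shifts in single genes was not tested. Scaling by total counts moved the median of all genes to -0.06. Of the values of single members, pooled over the alternative settings, 140 stayed and 24 moved beyond their counting error. The moves were not spread evenly over the settings. Ifi27, Irf7 and Bst2 moved under total-count scaling, and all other moves came from removal of the GC trend. That removal changed the sign of Bst2, from -0.19 to 0.06, and of Ifih1, from 0.02 to -0.28.

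No paired analysis was possible because each genotype had 1 library. No library was left out, and the spread between mice is unmeasured. Depth kept Ifi47 out of the comparison, and Mx1, Gbp7 and Ifit3 have few counts.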
